A study of Mus musculus with 16 samples.

Results

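The insulin receptor, the proteins that carry its signal in the liver cell and the liver's binding proteins for insulin-like growth factors were followed as 10 genes of the 52143 in the table. They were found by their symbols: *Insr*, *Irs1*, *Irs2*, *Pik3r1*, *Akt2*, *Foxo1*, *Igfbp1*, *Igfbp2*, *Igfbp4* and *Grb14*. All 10 passed the filter on low counts and were tested among 11324 genes. The RNA came from the liver of 16 male C57BL6/J mice, 4 in each of 4 groups. Chow mice ate a standard diet and HFD mice a diet with 60% fat, both for 12 weeks from an age of 6 weeks. The groups named Chow/FGFR4 KD and HFD/FGFR4 KD ate the same diets and received 3 mg/kg of an siRNA against *Fgfr4* under the skin every 2 weeks, and the groups named Chow and HFD received saline. The siRNA was joined to GalNAc, a sugar that hepatocytes take up, so the knockdown (KD) was directed at hepatocytes. No group received a control siRNA, so an effect of the injected RNA as such and the loss of FGFR4 cannot be told apart. The mice were housed 4 to a cage. Whether a cage held 1 group, and the hour and feeding state at which livers were taken, are not given in the sources used here.

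Insulin binds its receptor on the hepatocyte, the receptor phosphorylates the insulin receptor substrates IRS1 and IRS2, and these recruit phosphatidylinositol 3-kinase, which leads to activation of the kinase AKT2. AKT2 keeps the transcription factor FOXO1 out of the nucleus, which lowers the transcription of genes for glucose output, of *Irs2* and of *Igfbp1*. The IGF-binding proteins are secreted, bind the insulin-like growth factors in plasma and tissue and change how much of them reaches a receptor, and GRB14 binds the activated insulin receptor and inhibits it. *Irs2* and *Igfbp1* transcripts in liver are known to follow feeding and fasting closely.

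The depth was 3445949 to 5976449 estimated counts per library. A single gene, Gm42418, took from 11.07% to 22.7% of a library. The siRNA target *Fgfr4* was at 21.8 to 36.3 CPM (reads of a gene relative to the library total, adjusted between libraries with TMM factors) in the saline libraries and at 2.43 to 6.17 CPM in the KD libraries. The 8 hepatocyte markers examined were all tested and summed to between 56580 and 76980 CPM. In a principal component analysis the first component, with 46.1% of the variance, separated the diets except for HFD/FGFR4 KD 1. Its score of -6.33 was within the chow range of -23.2 to -4.84, while the other HFD libraries scored from 5.97 to 30.4. Calls of the 10 genes on HFD/FGFR4 KD, and values of theirs that this library moves most, are therefore also given without it. The saline HFD libraries were spread on this component too. HFD 1 and HFD 3 scored 25.7 and 30.4, against 5.97 for HFD 2 and 9.64 for HFD 4. The part of this spread in the results on the 10 genes was not tested.

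The transcripts differed widely in level. Per kilobase of the longest transcript, the Chow mean was 201 ± 8.60 CPM for *Igfbp4* (SD, n = 4), 130 ± 33.6 CPM for *Igfbp2* and 99.2 ± 41.8 CPM for *Igfbp1*. The genes of the signalling chain were all lower on that scale. *Akt2* was at 18.5 ± 1.08 CPM per kilobase, *Grb14* at 14.8 ± 1.89, *Insr* at 13.1 ± 1.38 and *Pik3r1* at 9.46 ± 1.11. *Irs2* was at 5.93 ± 1.61 CPM per kilobase, *Foxo1* at 4.73 ± 0.229 and *Irs1* was lowest at 3.53 ± 1.03. The mean ± SD of neighbours in that order overlapped for *Igfbp2* and *Igfbp1*, for *Grb14* and *Insr*, for *Irs2* and *Foxo1* and for *Foxo1* and *Irs1*. The spread within a group also differed: the Chow SD was 42.1% of the mean for *Igfbp1*, 29.3% for *Irs1*, 27.1% for *Irs2* and 25.9% for *Igfbp2*, against 4.28% for *Igfbp4* and 4.84% for *Foxo1*.

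All 10 are protein-coding genes in GRCm38 (GENCODE vM21 annotation). The insulin receptor gene *Insr* (ENSMUSG00000005534) is on the minus strand of chromosome 8 from 3122061 to 3279617, and *Irs2* (ENSMUSG00000038894) is on the same chromosome and strand from 10984681 to 11008458. *Irs1* (ENSMUSG00000055980) is on the minus strand of chromosome 1 from 82233101 to 82291416, and *Igfbp2* (ENSMUSG00000039323) is on its plus strand from 72824503 to 72852474. *Igfbp1* (ENSMUSG00000020429) is on the plus strand of chromosome 11 from 7197782 to 7202546. *Igfbp4* (ENSMUSG00000017493) is on the same chromosome and strand from 99041244 to 99054392. *Pik3r1* (ENSMUSG00000041417) is on the minus strand of chromosome 13 from 101680563 to 101768217, *Akt2* (ENSMUSG00000004056) on the plus strand of chromosome 7 from 27591552 to 27640826, *Foxo1* (ENSMUSG00000044167) on the plus strand of chromosome 3 from 52268336 to 52353221 and *Grb14* (ENSMUSG00000026888) on the minus strand of chromosome 2 from 64912476 to 65024987. Of the 31-base words in *Irs1* transcripts, 30.6% also occur in Gm9747, a gene annotated across its 3′ end on the opposite strand, and 13.3% of those of *Akt2* occur in the pseudogene Akt2-ps. These partners had at most 1 and 3.41 estimated counts in any library, against a lowest count of 59 for *Irs1* and 275 for *Akt2*, so few counts were assigned to them.

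The sequence just before the start of transcription is shown for the genes called lower on HFD in saline mice, by the rule given below. It is shown because FOXO1, the factor that insulin restrains, binds some promoters of this pathway. RefSeq windows of 250 bases before each annotated start (GRCm38.p6) were available for 9 of the 10 genes, and *Insr* was not in the table. The motif CAAAACA, which lies within the insulin response sequence of the *Igfbp1* promoter, was searched with the FOXO motif TGTTTAC and its shorter core TGTTT, on both strands. CAAAACA contains the core on its opposite strand, so each CAAAACA match is also a TGTTT match. CAAAACA was chosen after the sequences had been seen. It occurred in 5.56% of the 32817 windows in the RefSeq table, TGTTTAC in 3.16% and TGTTT in 46.4%. Capitals mark the matches, and the windows of *Irs1* (chr1:82291440-82291689, minus strand), *Irs2* (chr8:11008930-11009179, minus strand), *Igfbp1* (chr11:7197537-7197781, plus strand, ending where the first exon begins) and the upstream one of the pair for *Igfbp2* (chr1:72824230-72824479, plus strand) read, 5′ to 3′:
Irs1: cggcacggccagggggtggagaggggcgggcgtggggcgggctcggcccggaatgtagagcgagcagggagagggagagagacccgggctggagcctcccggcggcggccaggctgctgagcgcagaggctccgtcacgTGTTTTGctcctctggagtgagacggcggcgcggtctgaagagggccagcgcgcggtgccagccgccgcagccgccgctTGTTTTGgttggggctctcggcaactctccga
Irs2: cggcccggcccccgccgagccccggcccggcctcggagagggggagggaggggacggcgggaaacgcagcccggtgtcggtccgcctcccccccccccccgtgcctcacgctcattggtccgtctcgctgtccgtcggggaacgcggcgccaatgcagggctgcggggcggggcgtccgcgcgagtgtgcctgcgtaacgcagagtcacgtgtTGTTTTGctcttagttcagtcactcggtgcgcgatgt
Igfbp1: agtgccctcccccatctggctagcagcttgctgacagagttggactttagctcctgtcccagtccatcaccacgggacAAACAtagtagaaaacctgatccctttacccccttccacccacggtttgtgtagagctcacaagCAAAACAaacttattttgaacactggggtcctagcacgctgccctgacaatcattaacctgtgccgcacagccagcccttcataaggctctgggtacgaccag
Igfbp2: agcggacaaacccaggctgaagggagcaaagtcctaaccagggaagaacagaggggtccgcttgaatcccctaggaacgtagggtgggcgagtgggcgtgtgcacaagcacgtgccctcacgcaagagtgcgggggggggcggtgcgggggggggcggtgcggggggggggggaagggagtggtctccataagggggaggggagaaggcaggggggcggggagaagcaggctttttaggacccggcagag
CAAAACA, read on either strand, matched at 111 and at 32 bases before the start in *Irs1*, at 37 bases in *Irs2* and at 108 bases in *Igfbp1*. These distances count from the RefSeq start, which for *Irs2* lies 471 bases upstream of the GENCODE gene start given above. At least 2 matches, as in *Irs1*, occurred in 0.427% of all windows. No window of the other genes available held CAAAACA, nor did either window of *Igfbp2*, and none of the windows held TGTTTAC. The second *Igfbp2* window, not printed, held 2 TGTTT matches. *Akt2*, called lower on HFD in KD mice, had windows with 1, 2, 0 and 7 TGTTT matches, also not printed. A match describes letters in these windows and does not show that a factor binds there.

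HFD in saline mice lowered the transcripts of both receptor substrates and of 2 of the 3 binding proteins among the 10 genes. Against Chow, 4 of the 10 genes were called, all lower: *Igfbp1*, *Igfbp2*, *Irs2* and *Irs1*. A call by limma-voom required a p below 0.05 and a false discovery rate, computed over all genes by the Benjamini-Hochberg method, below 0.25. By that rule 26% of all genes tested were called and 12.7% were called lower. The 4 HFD libraries did not overlap the 4 Chow libraries for these 4 genes, as was so for 16.1% of all genes. In KD mice HFD also called 4 genes, *Irs2*, *Igfbp1* and *Akt2* lower and *Igfbp4* higher, where 20.2% of all genes were called and 10.1% called lower. The groups did not overlap for 3 of them (*Irs2*, *Igfbp1* and *Igfbp4*), against 11.5% of all genes. In whole liver, fewer cells of a type and less RNA per cell cannot be told apart.

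FGFR4 KD on HFD raised 1 of the 10 genes, *Igfbp2*, where 3.14% of all genes were called. The libraries of the 2 groups did not overlap for *Igfbp2* only, against 6.49% of all genes. On chow, none of the 10 was called by limma-voom, edgeR or DESeq2. On that diet 1, *Irs2*, had an unadjusted p under 0.05, as had 519 of all 11324 genes. Of all genes, 0.00883% were called on chow (1 gene, *Fgfr4* itself) and 2.52% did not overlap, and none of the 10 was among the latter. No member was called in the difference between the KD effects on the diets, where 0.0353% of all genes were. There *Igfbp2* and *Irs1* had an unadjusted p under 0.05, as had 765 of all 11324 genes. EdgeR called neither of these members and DESeq2 called *Igfbp2*. The comparisons of KD on HFD and of HFD in saline mice share the 4 HFD libraries, so a low level in those libraries moves both.

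**Figure D1:**
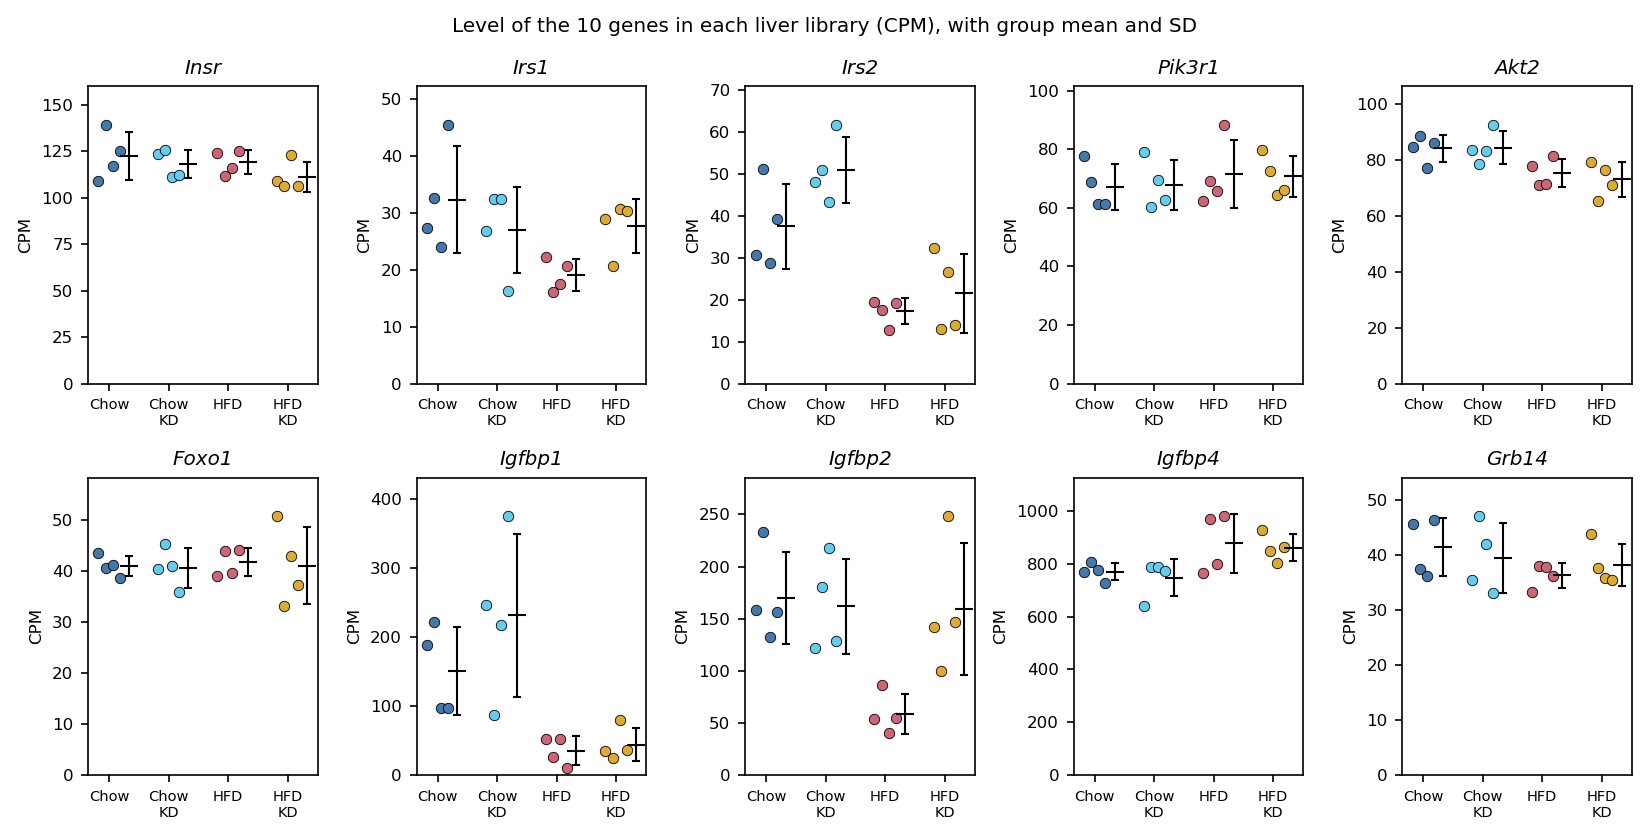
Level of each of the 10 genes in CPM (vertical axes, from 0) in every library, in 1 panel per gene. Points are mice, the bars beside them are mean and SD (n = 4), and "KD" on the horizontal axes stands for FGFR4 KD. The HFD points of *Igfbp2* lie from 40.2 to 86.0 CPM, below all points of the other 3 groups, while *Irs2* and *Igfbp1* are low in both HFD groups.

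Other measures moved with diet beside these genes. In saline mice on HFD, 26% of all genes were called and 12.7% were called lower. There 6 of 7 macrophage markers and 4 of 7 stellate cell and fibroblast markers were called higher, and 5 of 8 hepatocyte markers were called lower. The hepatocyte marker *Tat*, among those 5, is also counted below among the genes that insulin lowers. Of 6 endothelial markers, 3 (*Lyve1*, *Cdh5* and *Stab2*) were called higher, and so was *Cfd*, the only adipocyte marker tested, by 2.82 on the log2 scale. With KD on HFD, where 3.14% of all genes were called, *Cfd* fell by 1.57 on the log2 scale. The hepatocyte marker *Ttr* was called lower there and *Serpina1a* was called higher. No cholangiocyte marker was called in these 2 comparisons (2 of 5 tested), and no lymphocyte marker passed the filter. With HFD in KD mice 20.2% of all genes were called and 10.1% were called lower. Of the markers, *Csf1r* (macrophage), *Reln* (stellate), *Stab2* (endothelial) and *Cfd* were called higher in that comparison. *Tat* and the cholangiocyte marker *Sox9* were called lower. The macrophage markers summed to 37.3 to 45.9 CPM in Chow, 43.0 to 65.9 CPM in Chow/FGFR4 KD, 67.9 to 127 CPM in HFD and 55.1 to 105 CPM in HFD/FGFR4 KD, and none was listed at 0 throughout. The stellate markers summed to 93.5 to 136, 79.7 to 130, 153 to 275 and 109 to 187 CPM in the same order. Clock genes moved as well: all 5 with a peak around light onset were lower on HFD in saline mice and in KD mice, and 6 of 8 with a peak around dark onset were higher in saline mice, 7 of 8 in KD mice. With KD on HFD, 3 of the 5 (*Arntl*, *Clock* and *Nfil3*) were higher and 2 of the 8 (*Per2* and *Dbp*) were lower. The part of these markers and clock genes in the results on the 10 genes was not tested.

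The receptor transcript was not called with diet or with KD. *Insr* was at 109, 139, 117 and 125 CPM in Chow, at 124, 126, 111 and 112 CPM in Chow/FGFR4 KD, at 124, 112, 116 and 125 CPM in HFD and at 109, 106, 123 and 106 CPM in HFD/FGFR4 KD. The 4 groups overlapped throughout. The 95% intervals of its log2 change ran from -0.28 to 0.08 for KD on HFD, from -0.23 to 0.14 for KD on chow and from -0.21 to 0.14 for HFD in saline mice. When libraries were scaled by their totals alone, the median log2 change of all genes with HFD in saline mice was 0.29, and *Insr* was then called higher, by 0.24 (limma-voom adjusted p 0.128), which is -0.04 relative to that median.

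Both receptor substrates fell with HFD in saline mice, and in KD mice HFD lowered *Irs2* while *Irs1* was not called. IRS1 is the docking protein that couples the receptor to phosphatidylinositol 3-kinase in many tissues. *Irs1* was at 27.3, 32.6, 23.9 and 45.5 CPM in Chow and at 22.2, 16.02, 17.5 and 20.6 CPM in HFD. With KD it was at 26.8, 32.5, 32.4 and 16.3 CPM on chow and at 28.8, 20.6, 30.7 and 30.3 CPM on HFD. The HFD saline libraries were the low ones, with Chow/FGFR4 KD 4 as an exception among the chow libraries, and the highest HFD libraries overlapped the lowest HFD/FGFR4 KD library.

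The HFD mean CPM of *Irs1* was 59.0% of the Chow mean, and in KD mice the HFD mean was 102% of that on chow. The log2 change estimated by limma-voom was -0.72 in saline mice (SE 0.218, limma-voom adjusted p 0.0483). In KD mice it was 0.06 with a 95% interval of -0.41 to 0.53. KD on HFD moved *Irs1* by 0.53 (SE 0.220), and this did not pass (limma-voom adjusted p 0.375). The difference between the KD effects was 0.78 (95% interval 0.12 to 1.44), which did not pass either (limma-voom adjusted p 0.686), and 0.75 without HFD/FGFR4 KD 1. Without HFD/FGFR4 KD 2, the lowest library of that group, KD on HFD gave 0.66 and passed (limma-voom adjusted p 0.244), and over all alternatives the adjusted p for KD on HFD ran from 0.244 to 0.623. Without HFD/FGFR4 KD 1, the library that lies with chow on the first component, the change was 0.51 (limma-voom adjusted p 0.576). The fall on HFD in saline mice was called in 17 of 18 alternatives and lost when libraries were scaled by totals alone (log2 change -0.45, limma-voom adjusted p 0.155, or -0.74 relative to the median of all genes).

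IRS2 is the substrate whose liver transcript rises in fasting and falls with insulin. *Irs2* was at 30.8, 51.1, 28.8 and 39.3 CPM in Chow, at 48.0, 51.0, 43.3 and 61.8 CPM in Chow/FGFR4 KD, at 19.5, 17.7, 12.7 and 19.2 CPM in HFD and at 32.3, 13.1, 26.7 and 14.0 CPM in HFD/FGFR4 KD. All HFD libraries were below all Chow libraries, and all HFD/FGFR4 KD libraries were below all Chow/FGFR4 KD libraries. Within HFD/FGFR4 KD, libraries 1 and 3 were the higher ones.

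The log2 change of *Irs2* with HFD was -1.09 (SE 0.249, limma-voom adjusted p 0.0127) in saline mice and -1.30 (SE 0.249, limma-voom adjusted p 0.0126) in KD mice. Both were called in 18 of 18 alternatives, and without HFD/FGFR4 KD 1 the second was -1.51 (limma-voom adjusted p 0.0040). KD changed *Irs2* by 0.48 on chow (95% interval 0.00 to 0.97, limma-voom adjusted p 0.976) and by 0.27 on HFD (-0.30 to 0.84, limma-voom adjusted p 0.774), the latter only 0.06 without HFD/FGFR4 KD 1. Neither passed, and the interval of the difference between them ran from -0.96 to 0.53.

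Further down the chain *Pik3r1* and *Foxo1* were not called in any comparison. PIK3R1, the regulatory subunit that docks on IRS proteins, is encoded by *Pik3r1*, which ranged from 60.3 to 88.4 CPM over the 16 libraries, with 95% intervals of the log2 change within -0.25 and 0.33 in the comparisons of KD and of diet. *Foxo1* ranged from 33.2 to 50.8 CPM, and its intervals lay within -0.26 and 0.26 there. The highest and the lowest library of *Foxo1* were both in HFD/FGFR4 KD (libraries 1 and 2), where its SD was 18.5% of the mean, against 4.84% in Chow. Without HFD/FGFR4 KD 1 its change with KD on HFD was -0.13 in place of -0.03, and with HFD in KD mice -0.10 in place of 0.00, neither called. Scaling by totals alone called both higher with HFD in saline mice, by 0.36 for *Pik3r1* and 0.30 for *Foxo1*, which is 0.07 and 0.01 relative to the median of all genes.

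*Akt2*, the AKT kinase through which insulin acts on liver metabolism, was at 84.9, 88.7, 77.3 and 86.2 CPM in Chow and at 77.9, 71.3, 71.4 and 81.4 CPM in HFD. In KD mice it was at 83.5, 78.6, 83.3 and 92.7 CPM on chow and at 79.3, 65.3, 76.5 and 71.2 CPM on HFD. The values on HFD were on average lower but overlapped those on chow in both treatments. The log2 change with HFD was -0.21 in KD mice (SE 0.0839, limma-voom adjusted p 0.176), which was called, and -0.16 in saline mice (SE 0.0823, limma-voom adjusted p 0.235), which was not, since its p was over 0.05. The call in KD mice held in 12 of 18 alternatives, with adjusted p from 0.116 to 0.792. It was lost without Chow/FGFR4 KD 4 (-0.16), HFD/FGFR4 KD 2 (-0.15) or HFD/FGFR4 KD 4 (-0.20), and without HFD/FGFR4 KD 1 the change was -0.25.

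**Figure D2:**
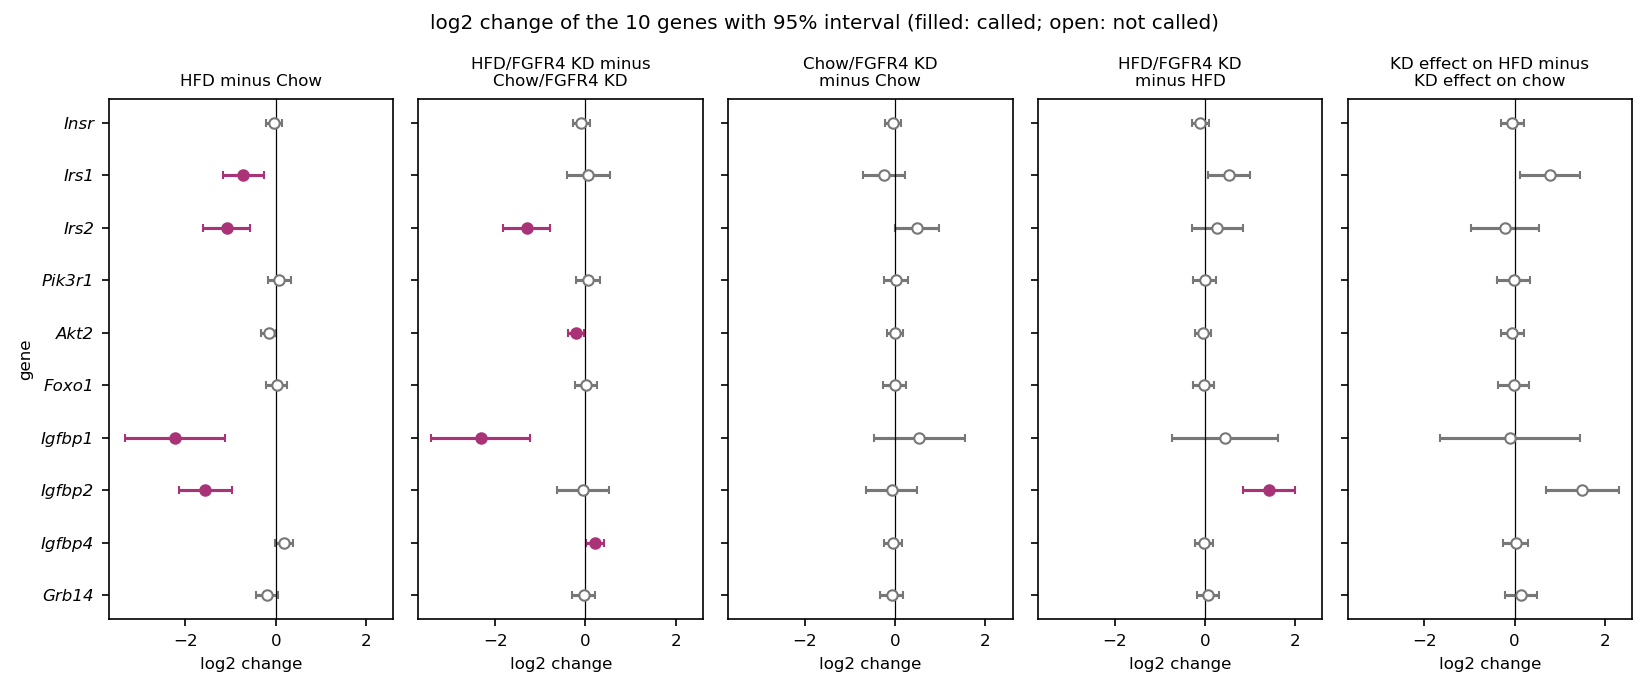
log2 change (horizontal axes) of the 10 genes (vertical axis) in 5 comparisons, 1 panel each, with 95% intervals from limma-voom over 16 libraries. Filled points were called and open points were not. *Igfbp1* and *Irs2* lie left of 0 for HFD in both treatments, *Igfbp2* lies at -1.56 for HFD in saline mice and at 1.42 for KD on HFD, and no point is filled for KD on chow or for the difference between KD effects.

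Of the secreted binding proteins, *Igfbp1* changed most with diet. IGFBP1 is made mainly by the liver, and its gene is switched off by insulin within hours. *Igfbp1* was at 189, 222, 97.6 and 97.1 CPM in Chow, at 247, 86.6, 217 and 375 CPM in Chow/FGFR4 KD, at 52.9, 25.7, 52.3 and 9.69 CPM in HFD and at 34.7, 25.2, 79.7 and 36.3 CPM in HFD/FGFR4 KD. Every HFD library was below every library on chow with either treatment, with a spread of up to 5.46 times between the highest and the lowest library of a group.

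The HFD mean CPM of *Igfbp1* was 23.2% of the chow mean in saline mice and 18.99% in KD mice. The log2 change estimated by limma-voom was -2.23 in saline mice (SE 0.522, limma-voom adjusted p 0.0140). In KD mice it was -2.32 (SE 0.516, limma-voom adjusted p 0.0236). Both were called in 18 of 18 alternatives, and the second was -2.245 without HFD/FGFR4 KD 1. KD changed *Igfbp1* by 0.54 on chow (95% interval -0.47 to 1.54) and by 0.44 on HFD (-0.73 to 1.62), neither past the threshold.

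*Igfbp2* was the member that KD changed. IGFBP2 is abundant in plasma, its liver transcript is low in obesity, and it binds both insulin-like growth factors. *Igfbp2* was at 158, 233, 132 and 156 CPM in Chow and at 53.3, 86.0, 40.2 and 54.5 CPM in HFD. With KD it was at 122, 180, 217 and 128 CPM on chow and at 142, 99.4, 248 and 147 CPM on HFD. The 4 HFD libraries were the 4 lowest of the 16. The HFD/FGFR4 KD libraries reached from below the lowest Chow library to above the highest, and their mean, 159 ± 63.1 CPM (SD, n = 4), was 93.8% of the Chow mean of 170 ± 43.9 CPM.

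The log2 change of *Igfbp2* with HFD was -1.56 in saline mice (SE 0.275, limma-voom adjusted p 0.00320) and -0.06 in KD mice (95% interval -0.62 to 0.51, limma-voom adjusted p 0.935). The HFD/FGFR4 KD mean CPM was 272% of the HFD mean. KD on HFD raised *Igfbp2* by 1.42 on the log2 scale (SE 0.275, limma-voom adjusted p 0.0453), and it was 20th of 11324 genes by p. KD on chow changed it by -0.08 (95% interval -0.65 to 0.49). The call for KD on HFD held in 18 of 18 alternatives, with a log2 change from 1.18 to 1.63 and adjusted p from 0.000194 to 0.163. Without HFD/FGFR4 KD 1 it was 1.45 (limma-voom adjusted p 0.0983).

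Tested directly, the KD effect on *Igfbp2* differed between the diets by 1.503 (95% interval 0.69 to 2.31), but this did not pass over all genes (limma-voom adjusted p 0.491). It ranked 25th of all genes by p. DESeq2 gave 1.52 and called it (DESeq2 adjusted p 0.0474), as did limma-voom without HFD/FGFR4 KD 2 (1.704, adjusted p 0.178), and over 25 alternatives the adjusted p ran from 0.0474 to 0.830. Without HFD/FGFR4 KD 1 the difference was 1.53 and did not pass (limma-voom adjusted p 0.659). In the same comparison of KD on HFD the clock genes *Arntl* (1.55), *Nfil3* (1.16) and *Clock* (0.53) rose and *Per2* (-0.85) and *Dbp* (-1.09) fell on the log2 scale. The part of these shifts in the rise of *Igfbp2* was not tested.

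*Igfbp4*, whose product mostly restrains IGF action, had the highest level of the 10 and a narrow spread. It was at 768, 808, 778 and 728 CPM in Chow, at 641, 789, 788 and 772 CPM in Chow/FGFR4 KD, at 764, 969, 798 and 980 CPM in HFD and at 927, 848, 805 and 863 CPM in HFD/FGFR4 KD. All HFD/FGFR4 KD libraries were above all Chow/FGFR4 KD libraries, while Chow and HFD overlapped. Its log2 change with HFD was 0.21 in KD mice (SE 0.0947, limma-voom adjusted p 0.236), which was called, and 0.18 in saline mice (SE 0.0952, limma-voom adjusted p 0.242), which was not, since its p was over 0.05. The call in KD mice held in 6 of 18 alternatives, with adjusted p from 0.0647 to 0.501. It was lost without any 1 of the 4 HFD/FGFR4 KD libraries (0.17, 0.21, 0.24 and 0.20 in the order of their numbers) and without Chow/FGFR4 KD 1 (0.12), 2 (0.23) or 4 (0.22). The KD effect was -0.02 on HFD (95% interval -0.22 to 0.18) and -0.05 on chow (-0.25 to 0.15).

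The receptor inhibitor *Grb14* was not called in any comparison. It was at 36.3 to 46.4 CPM in Chow, 33.1 to 47.1 CPM in Chow/FGFR4 KD, 33.3 to 38.1 CPM in HFD and 35.5 to 43.8 CPM in HFD/FGFR4 KD, so all groups overlapped. Its log2 change with HFD in saline mice was -0.19 (95% interval -0.43 to 0.06), and KD changed it by 0.07 on HFD (-0.18 to 0.32) and by -0.08 on chow (-0.34 to 0.18).

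The median log2 change of the 10 genes was -0.17 with HFD in saline mice, where that of all genes was 0.01. It was -0.05 with HFD in KD mice (all genes -0.01), 0.03 with KD on HFD (all genes 0.00) and -0.03 with KD on chow (all genes 0.00). The 4 called genes and the 6 others make up that median together.

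The rest of the pathway was examined with lists of 57 further genes, of which 49 were tested. With HFD in saline mice 10 of the 49 were called (20.4%, against 26% of all genes), 7 higher and 3 lower, and with HFD in KD mice 10 (20.4%, against 20.2%), 4 higher and 6 lower. With KD on HFD 1 was called, lower (2.04%, against 3.14%). With KD on chow none was, where 3 had an unadjusted p under 0.05, as had 519 of all 11324 genes. None was called in the difference between the KD effects, where 3 had an unadjusted p under 0.05, as had 765 of all 11324 genes. EdgeR and DESeq2 also called none in these 2 comparisons. The median log2 change of the 49 was -0.02 with HFD in saline mice, 0.03 with HFD in KD mice and 0.04 with KD on HFD, beside all-gene medians of 0.01, -0.01 and 0.00.

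Among ligands and binding proteins, *Igf1*, the main growth factor that the liver secretes, was at 381 ± 25.2 CPM in Chow, 361 ± 60.8 CPM in Chow/FGFR4 KD, 325 ± 68.2 CPM in HFD and 355 ± 53.7 CPM in HFD/FGFR4 KD (SD, n = 4) and was called in no comparison. *Igfbp3*, the main carrier of IGF1 in plasma, which in liver comes largely from cells other than hepatocytes, rose with HFD in saline mice by 0.89 on the log2 scale (SE 0.309, limma-voom adjusted p 0.0822) and fell with KD on HFD by 0.95 (SE 0.305, limma-voom adjusted p 0.228). Its mean was 9.01 ± 3.82 CPM in Chow, 16.1 ± 3.545 CPM in HFD and 8.59 ± 2.70 CPM in HFD/FGFR4 KD, so it moved in the opposite direction to *Igfbp2* in both comparisons, which share the HFD libraries. *Igfbp7* rose with HFD in both treatments, by 0.65 in saline mice (SE 0.162, limma-voom adjusted p 0.0179) and by 0.45 in KD mice (SE 0.173, limma-voom adjusted p 0.154). Of the 2 receptors of the family that were tested beside *Insr*, *Igf1r* and *Igf2r*, neither was called.

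Adaptors and receptor inhibitors held few calls. None of the 4 adaptors tested was called in any of the 5 comparisons. Among the 10 receptor-level inhibitors tested, *Enpp1*, which inhibits the insulin receptor, rose with HFD in saline mice by 0.51 (SE 0.168, limma-voom adjusted p 0.0671) and in KD mice by 0.73 (SE 0.181, limma-voom adjusted p 0.0392). *Ceacam1*, which promotes insulin clearance in the liver, fell by 0.22 in saline mice, and *Socs3*, a feedback inhibitor of receptor signalling, fell by 1.66 with HFD in KD mice (SE 0.621, limma-voom adjusted p 0.148).

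Lower in the chain, the catalytic subunit gene *Pik3ca* fell by 0.29 with HFD in KD mice. *Trib3*, a pseudokinase that binds AKT, rose with HFD by 1.28 in saline mice (SE 0.340, limma-voom adjusted p 0.0262) and by 1.30 in KD mice (SE 0.425, limma-voom adjusted p 0.104). *Rictor*, the defining subunit of mTOR complex 2, which phosphorylates AKT, fell with HFD by 0.62 in saline mice (SE 0.152, limma-voom adjusted p 0.0173) and by 0.82 in KD mice (SE 0.155, limma-voom adjusted p 0.0123). *Rps6kb1*, a kinase downstream of mTOR complex 1, fell by 0.36 and 0.45 in the same comparisons, *Mtor* rose by 0.49 in saline mice, and in KD mice *Ddit4*, an inhibitor of mTOR complex 1, rose by 0.99 and *Deptor*, an mTOR-binding inhibitor, fell by 0.24. The list of *Foxo3*, *Foxo4* and *Foxo6* held 2 tested genes and no call.

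The single call for KD on HFD depended on the test and on single libraries. EdgeR called none, and it called 230 of all genes in place of 356. Limma-voom called none with no filter or with library totals. None was called when HFD 1, HFD 3, HFD 4, HFD/FGFR4 KD 1, HFD/FGFR4 KD 3 or HFD/FGFR4 KD 4 was dropped. The count of 10 for HFD in KD mice was 5 without Chow/FGFR4 KD 4 and 4 without HFD/FGFR4 KD 4. The shares of all genes called in these limma-voom fits are not given here.

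**Figure D3:**
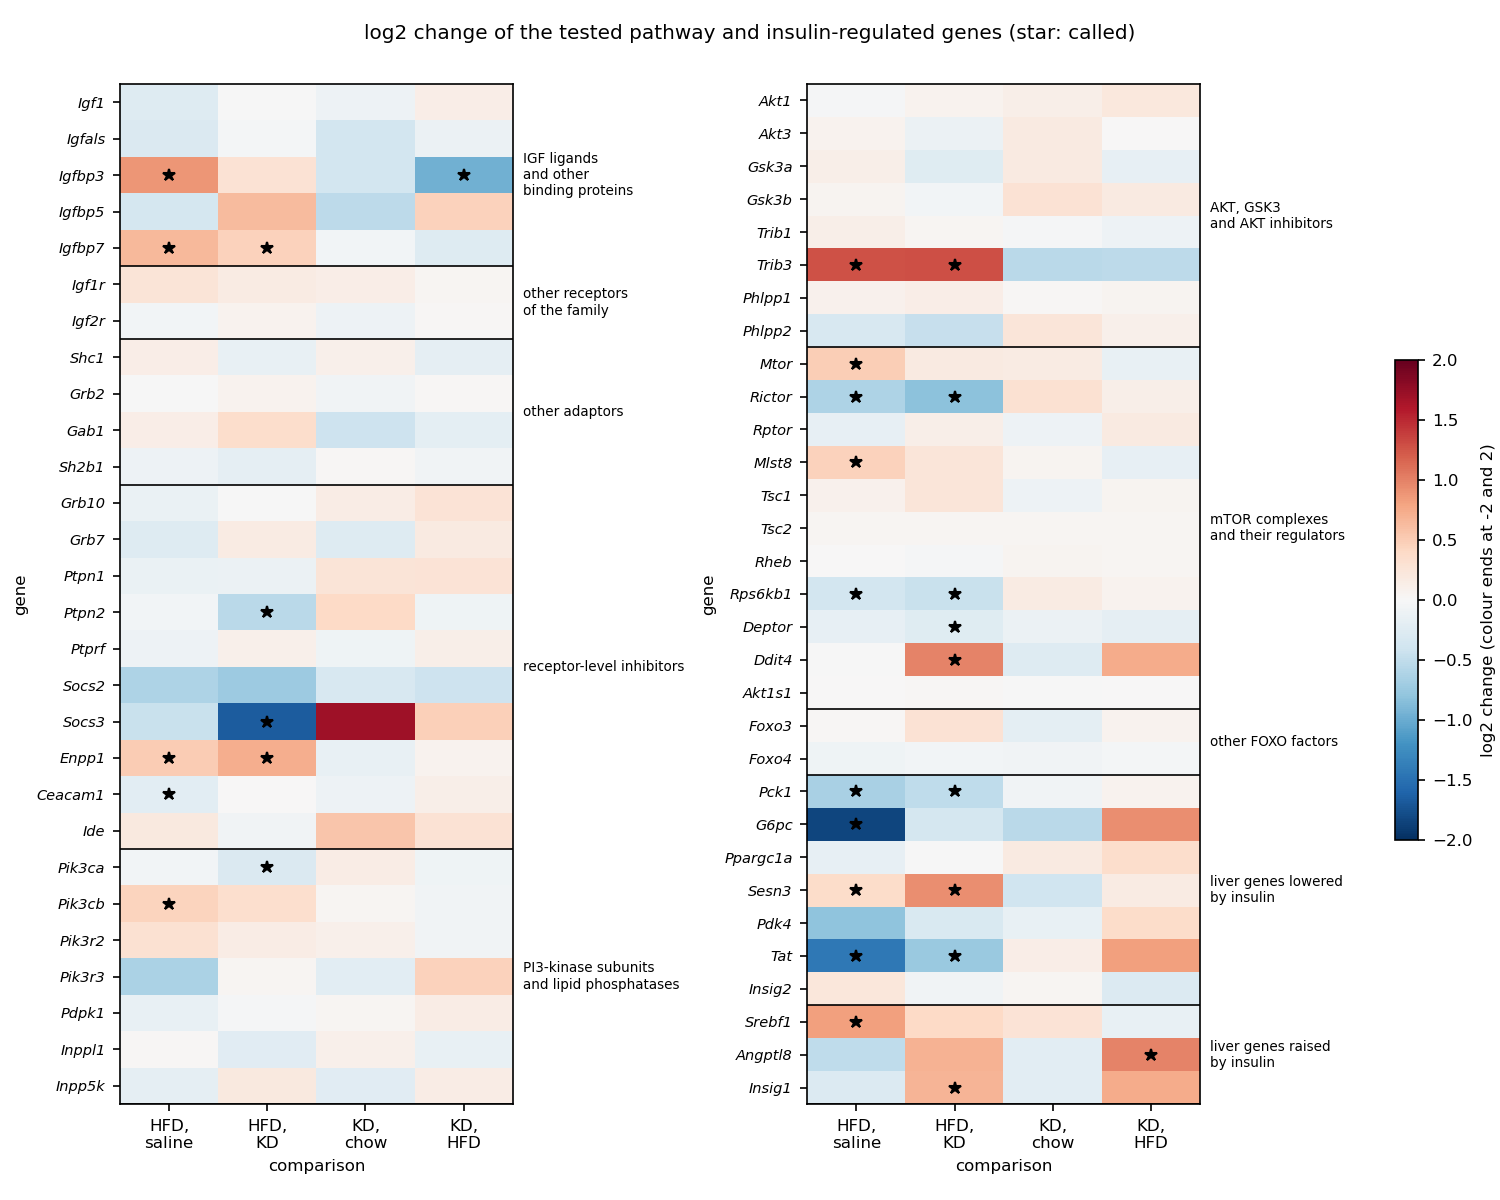
log2 change (colour, ending at -2 and 2) of the 49 tested pathway genes and the 10 tested insulin-regulated genes (vertical axes) in 4 comparisons (horizontal axes), where a star marks a call. The comparisons are HFD in saline mice, HFD in KD mice, KD on chow and KD on HFD. Stars stand in the diet columns for *Rictor*, *Trib3*, *Enpp1*, *Pck1* and *Tat*, the column of KD on chow has none, and that of KD on HFD has 2, at *Igfbp3* and *Angptl8*.

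Genes that insulin controls in the liver were taken as a readout beside the members. Of 7 genes that insulin lowers, HFD in saline mice lowered 3. *G6pc*, the last enzyme of glucose release, fell by 1.84 (SE 0.408, limma-voom adjusted p 0.0109), *Tat*, a tyrosine-degrading enzyme, by 1.43 (SE 0.306, limma-voom adjusted p 0.00885), and *Pck1*, the rate-limiting enzyme of gluconeogenesis, by 0.65 (SE 0.162, limma-voom adjusted p 0.0189). *Sesn3* of the same list, a FOXO1 target that acts on mTOR signalling, rose by 0.37 in saline mice and by 0.94 in KD mice. Of the 3 tested genes that insulin raises, *Srebf1*, a regulator of fatty acid synthesis, rose by 0.82 in saline mice. In all, 5 of the 10 were called in saline mice (50%, against 26% of all genes) and 4 in KD mice (40%, against 20.2%). With KD on chow none was called. For 1 of them the unadjusted limma-voom p was under 0.05, as for 519 of all 11324 genes.

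With KD on HFD 1 of these 10 genes was called (10%, against 3.14% of all genes): *Angptl8*, an insulin-induced secreted protein that acts on lipoprotein lipase, rose by 0.99 (SE 0.317, limma-voom adjusted p 0.228), from 10.8 ± 2.83 to 22.3 ± 8.16 CPM. *G6pc* moved by 0.93 and did not pass (limma-voom adjusted p 0.401), at 172 ± 91.6 CPM in HFD and 279 ± 66.2 CPM in HFD/FGFR4 KD. *Pck1* moved by 0.06 (SE 0.162). The median log2 change of the 10 was 0.36, where that of all genes was 0.00. It was 0.35 for the 7 that insulin lowers and 0.74 for the 3 that insulin raises. For 4 of the 10 the unadjusted p was under 0.05, against 1244 of all 11324 genes. It was so for 4 in the difference between the KD effects too, against 765 of all genes, and none was called there. The call of *Angptl8* was the only one by limma-voom. DESeq2 called 3 genes of the list, and the share of all genes it called is not given here. No gene of the list was called when HFD 1, HFD 3, HFD 4, HFD/FGFR4 KD 1, HFD/FGFR4 KD 3 or HFD/FGFR4 KD 4 was dropped. Dropping HFD 2 gave 3 calls, and dropping HFD/FGFR4 KD 2 gave 2. The count of 4 for HFD in KD mice was 2 without Chow/FGFR4 KD 4 and 1 without HFD/FGFR4 KD 4.

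Within groups, few of the members varied together. After the group means of log2 CPM were removed, the largest Pearson r between any 2 of the 10 over the 16 libraries was 0.80, for *Irs2* and *Akt2*. The next were 0.55 for *Irs2* and *Insr*, 0.54 for *Irs2* and *Foxo1*, 0.53 for *Foxo1* and *Grb14* and -0.52 for *Igfbp1* and *Igfbp4*. *Irs1* and *Irs2*, which both fell on HFD in saline mice, had an r of 0.22, and *Igfbp1* and *Igfbp2* of 0.13. Depth and scaling are shared by all values of a library, so these are descriptions.

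**Figure D4:**
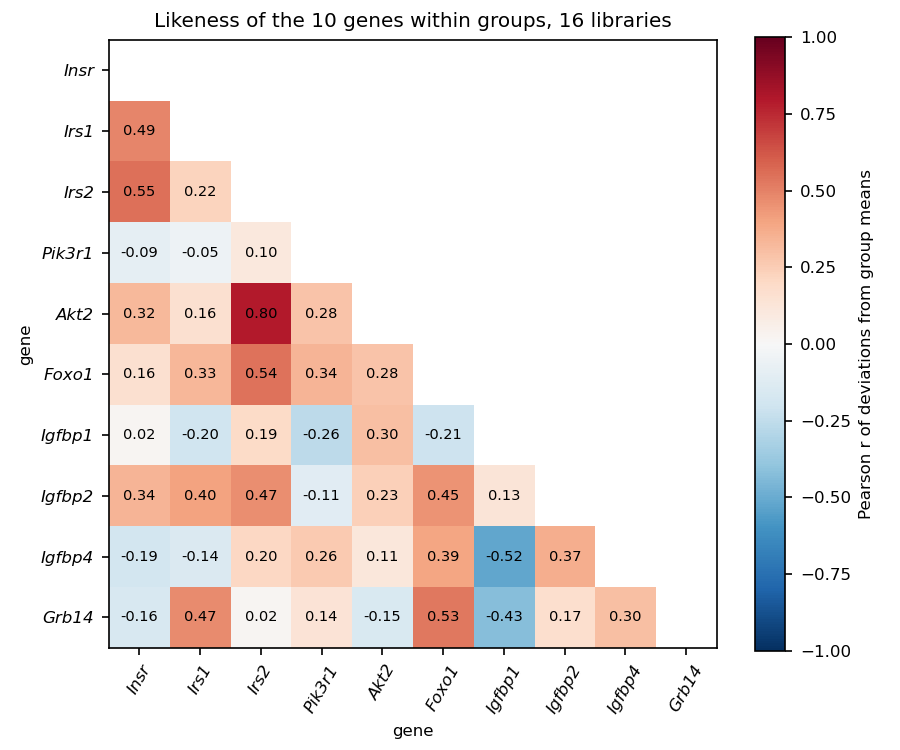
Pearson r (colour and number) between the 10 genes (both axes) of their deviations from the group means in log2 CPM, over 16 libraries. *Irs2* and *Akt2* are alike at 0.80, and the lowest value, -0.52, is that of *Igfbp1* and *Igfbp4*.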

How the data were processed

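Liver RNA of 16 mice was sequenced from libraries made with the KAPA mRNA HyperPrep kit, per the labels, while the methods of the study name HTG EdgeSeq. The authors pseudoaligned reads with kallisto and summed transcripts to genes with tximport, and fastp and GRCm38 are named in the submitters' processing notes. The transcriptome release is not given in the sources used here. The deposited values are estimated counts, not scaled, and from 7.85% to 11.1% of a library's cells were not whole. Symbols were found for 98.3% of gene identifiers, and no identifier without a symbol was used.

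As in the study's methods, genes below 1 CPM in more than 4 libraries were dropped, leaving 11324. The study states another number of genes for this rule, so the table tested there may differ from the deposited one. TMM factors from edgeR 4.0.16 scaled the counts, which were tested with limma-voom (limma 3.58.1, R 4.3.3) with a mean per group over all 16 libraries. A call needs p under 0.05 and an adjusted p under 0.25. Per-kilobase levels divide CPM by the longest GENCODE transcript. Alternatives were edgeR's quasi-likelihood test and DESeq2 1.42.0, both on rounded counts, keeping genes with 1 CPM in 4 or more libraries, no filter, library totals, DESeq2 size factors, Gm42418 and Lars2 left out before scaling, quality weights, the compared groups alone, a replicate block, an adjusted p under 0.05 and leaving out each library. Counts of alternatives given for single genes leave out the adjusted p under 0.05. The pipeline was tested on simulated counts. Likeness of genes used log2 CPM with a prior count of 2, and components the 500 most variable genes.

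The members and lists were chosen with earlier results of these data known, so no adjusted p over a list alone is given. Some genes of the lists are not reported here and enter no count of them. The text names the members, *Fgfr4*, and at most 5 rising and 5 falling called genes of the lists per comparison. Other list genes (*Igf1*, *Igf1r*, *Igf2r*, the FOXO genes, uncalled values and clock genes) were named after their values were seen. Each library is 1 mouse, and total counts and the spread between mice set the precision. Shared words were 31 bases long in GENCODE vM21 transcripts, and promoter windows came from RefSeq (GRCm38.p6). Sequences and figures used Python 3.11.15.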

Additional observations from a re-analysis of the deposited data

Results flagged for a closer look

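In 40 groups of 4 libraries (10 genes in 4 groups), 2 held a library far from the other 3, as many as the 1 in 20 that chance gives. *Insr* was at 123.1 CPM in HFD/FGFR4 KD 3, against 106.4 to 109.2 CPM in the others of that group, a gap of 0.831 of the group's range, just past the limit used. *Igfbp4* was at 641.4 CPM in Chow/FGFR4 KD 1, against 772.2 to 789.4 CPM in the others, a gap of 0.884 of the range. Neither gene was called with KD, and the call of *Igfbp4* with HFD in KD mice was lost without Chow/FGFR4 KD 1.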

How the results depend on the processing

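The 970 values of single genes under an alternative leave out the stricter adjusted p under 0.05. Of them, 938 kept their side of the threshold without a reversal, 19 lost a call, 12 gained one and 1 reversed. Values that changed sign with no call in either fit, 87 of them, count among the 938. The reversed one is *Insr* with HFD in saline mice under library totals, 0.24 with a call, against -0.04. With HFD in saline mice, library totals called 7 of the 10 genes in place of 4 (*Insr*, *Pik3r1*, *Foxo1* and *Igfbp4* higher, *Irs2*, *Igfbp1* and *Igfbp2* lower). The share of all genes called under that scaling is not given here. Relative to the median of all genes in that fit, the higher ones were at -0.04, 0.07, 0.01 and 0.17 in that order. Library totals moved that median to 0.29 and the share of calls that were higher from 51.2% to 92.1%. With HFD in KD mice they moved the median to 0.14 and the share from 50.1% to 82.8%. With KD on HFD they moved that share from 47.8% to 33.3%. With HFD in KD mice, 2 genes (*Irs2* and *Igfbp1*) remained with no filter, with an adjusted p under 0.05 and with the compared groups alone, in place of 4. For the difference between KD effects DESeq2 called 1 in place of 0. Leaving out 1 library gave 4 to 5 called genes for HFD in saline mice, 2 to 4 for HFD in KD mice, 1 to 2 for KD on HFD, 0 to 1 for the difference and 0 for KD on chow. The shares of all genes called in those fits are not given here. The count for HFD in KD mice was 2 without Chow/FGFR4 KD 4, HFD/FGFR4 KD 2 or HFD/FGFR4 KD 4. The cause of these moves was not tested.

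Samples of different groups share replicate numbers, but the numbers did not pair them: the correlation of same-numbered libraries' deviations ran from -0.291 to 0.239. With the replicate block, 1 gene was called for KD on HFD, 4 for HFD in saline mice, 3 for HFD in KD mice (*Igfbp4* was lost), and 0 for the others.

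The lowest count of a member in any library was 48, for *Igfbp1* in HFD 4, and *Irs2* was at 54 to 161 counts in the HFD and HFD/FGFR4 KD libraries. Nothing was measured on proteins, phosphorylation or plasma insulin in these libraries. The study measured fasting insulin and liver IRS1 protein in mice, and phosphorylation in cultured hepatocytes. Those results are not reported here.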
